A study of Danio rerio with 16 samples.

Results

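Matrix metalloproteinases are zinc-dependent endopeptidases that cleave collagens and other components of the extracellular matrix, and tissue inhibitors of metalloproteinases (TIMPs) bind and block them. The 7 genes described here were taken by gene symbol from the 24783 symbols of the deposited annotation: mmp9 (gelatinase B), mmp13a (a collagenase), mmp2 (gelatinase A), mmp14a and mmp14b (membrane-anchored enzymes) and the inhibitors timp2a and timp2b. In mammals, MMP9 is stored in granules of neutrophils, and pro-MMP2 is activated at the cell surface by MMP14 in a complex in which TIMP2 acts as the bridge. Cells that leave the blood and cross tissue, as neutrophils do on the way to a wound, are a known source of such enzymes.

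Cells came from whole zebrafish embryos of the Tg(mpx:Dendra2) line, in which the promoter of the neutrophil myeloperoxidase gene mpx drives a protein that turns from green to red when photoconverted. The heads of all embryos were photoconverted at 34 and 44 hours post fertilization (hpf), so that red cells stand for neutrophils derived from the rostral blood island (RBI) and green cells for those derived from the caudal hematopoietic tissue (CHT). The caudal fin was transected at 54 hpf in the cut embryos and not in the normal ones, and red and green cells were sorted separately 3 h later from many embryos pooled. This gave RBI-derived cut, RBI-derived normal, CHT-derived cut and CHT-derived normal cells, all with the transgene and all photoconverted. The sample codes end in RE and GR, which were read as red and green. Colour marks where a cell was when the light was applied, and not every cell's origin.

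The assay was droplet-based 3′ single-cell RNA sequencing, which counts transcripts by unique molecular identifiers (UMIs). Each condition was 1 matrix, registered under 4 entries labelled as replicates with no map from cells to entries. No condition thus had a replicate that could be told apart, no test was made, and all intervals below are exact at the 95% level and cover counting error only, not the spread between embryos or libraries. The libraries held 7409098, 8874272, 15982680 and 17303744 UMIs, in the order RBI-derived cut, RBI-derived normal, CHT-derived cut and CHT-derived normal, which is kept wherever 4 values are given. With at least 1000 UMIs, 300 to 7500 genes and at most 10% mitochondrial UMIs, 1629, 1196, 2925 and 1849 cells remained, with medians of 3479, 4316.5, 4253 and 7673 UMIs. Cells with at least 1% of their UMIs on the lysozyme gene lyz were called neutrophils, and cells below it with at least 3 UMIs of mfap4, mpeg1.1, marco, fgl2a, lgals3bpb and c1qb together were called macrophages. Neutrophils numbered 1238, 957, 1172 and 675, macrophages 230, 44, 1001 and 550, and other cells 161, 195, 752 and 624. In the lists of 8 neutrophil and 8 macrophage markers, neutrophils had 112107 to 195802 CPM (UMIs of a gene scaled to the same total in every sum) of the first and 5.19 to 290.1 CPM of the second. The first list held lyz, mpx, npsn, ponzr6, lect2l, il34, cpa5 and srgn. The second held the macrophage genes of the rule, irf8 and csf1ra. Both lists hold the genes that set the classes, so these sums were largely fixed by the rule and are no independent check. The CHT-derived cut neutrophils stood apart, because 195 of 1172 (16.6%) also reached the macrophage limit, against 0 to 8 cells in the other libraries. In this library the macrophage markers summed to 290.1 CPM in neutrophils, against 48.6 CPM in CHT-derived normal ones. Libraries shared 5 to 21 cell barcodes with another.

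The 7 genes fell into 3 patterns of cell class. Over all 7599 cells mmp13a had 244913 UMIs and mmp9 96663, nearly all in neutrophils, with 238959 and 93272. The inhibitor timp2b had 5173 UMIs, which neutrophils and macrophages held at similar levels. The remaining members were rare, with 452 UMIs for mmp14b, 247 for mmp2, 213 for timp2a and 67 for mmp14a, and were low in neutrophils. Of the 3 classes as a whole, macrophages had the highest levels of mmp14b, and other cells those of mmp2, timp2a and mmp14a. A 3′ library counts transcript ends, so no value was scaled by gene length, and levels are compared within a gene.

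**Figure D1:**
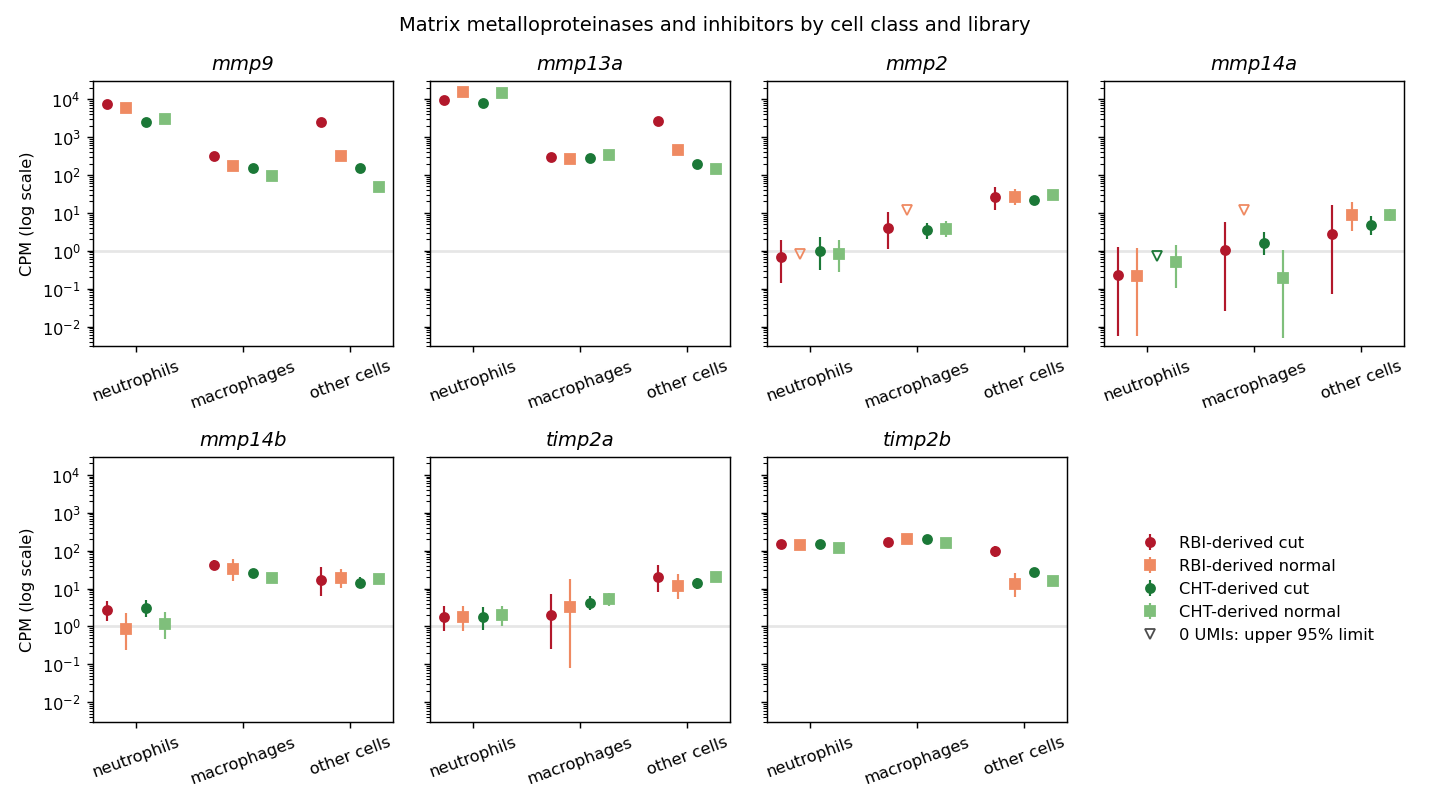
Level of each member in CPM (log scale) in neutrophils, macrophages and other cells of the 4 libraries, with 95% Poisson intervals; open triangles mark the upper limit where no UMI was found. mmp9 had at least 2546 CPM and mmp13a at least 7910.2 CPM in the neutrophil sums, mmp14b was lowest in neutrophils, and timp2b was alike in neutrophils and macrophages.

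The gelatinase gene mmp9 (ENSDARG00000042816) was highest in RBI-derived neutrophils. Its level was 7601 CPM in RBI-derived cut, 5993 in RBI-derived normal, 2546 in CHT-derived cut and 3046 in CHT-derived normal neutrophils. The Poisson intervals of these sums did not overlap. Next came the other cells of the RBI-derived cut library with 2538 CPM (2375 to 2710.0), an interval that overlapped the one of CHT-derived cut neutrophils (2502 to 2589.6). In macrophages mmp9 had 321.8, 173.0, 155.1 and 94.7 CPM, far below every neutrophil sum. The ratio of neutrophils over macrophages was 23.6-fold, 34.6-fold, 16.4-fold and 32.2-fold, or 4.56, 5.11, 4.04 and 5.01 on the log2 scale. With free RNA subtracted, as described below, the RBI-derived cut value was 5.45 and the CHT-derived cut value 4.64, and in cells thinned to 1000 UMIs the RBI-derived normal value was 6.12.

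The collagenase gene mmp13a was high in neutrophils of either origin. It had 9306 CPM in RBI-derived cut, 15119 in RBI-derived normal, 7910.2 in CHT-derived cut and 14376 in CHT-derived normal neutrophils. The 2 normal libraries thus stood above the 2 cut ones, whichever the origin. Macrophages had 300.4, 262.7, 279.5 and 344.4 CPM, which gives neutrophils over macrophages of 4.95, 5.85, 4.82 and 5.38 (log2). Subtraction of free RNA gave 6.08 for RBI-derived cut, 6.09 for CHT-derived cut and 6.44 for RBI-derived normal cells, and thinning gave 7.20 in RBI-derived normal and 6.01 in CHT-derived normal cells.

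Detection was compared at equal depth, for which each cell was thinned to 1000 UMIs. At that depth mmp13a was found in 99.5%, 99.2%, 96.9% and 97.9% of neutrophils, and in 99.8%, 100%, 99.7% and 99.4% without thinning. For mmp9 the thinned shares were 97.1%, 92.4%, 76.5% and 79.3%, and the unthinned ones 98.9%, 97.4%, 89.3% and 92.7%. At equal depth mmp9 was thus found in more of the RBI-derived neutrophils, with lower limits of 96.0% in cut and 90.5% in normal cells, against upper limits of 78.9% in CHT-derived cut and 82.3% in CHT-derived normal cells. In macrophages the thinned shares were 25.2%, 11.4%, 10.8% and 9.45% for mmp9 and 24.3%, 13.6%, 22.3% and 20.2% for mmp13a.

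Free RNA, released by broken cells and captured in every droplet, was measured in droplets with 10 to 100 UMIs. These droplets held 6604, 1601, 1288 and 977.5 CPM of mmp9. If all lyz in the macrophages were free RNA, this estimate would give 159.8, 21.5, 62.0 and 13.8 CPM of mmp9. For mmp13a it would give 171.6, 96.2, 172.6 and 84.6 CPM. In neutrophils all UMIs of the macrophage genes of the class rule were taken as free RNA in the same way. Neural-like cells had 313.7, 48.0, 70.5 and 54.9 CPM of mmp9, at medians of 1450, 2253, 1882 and 3069 UMIs per cell against 4169, 6862, 5349 and 9264 in macrophages. They had 349.9, 186.2, 173.0 and 155.7 CPM of mmp13a. Whether neural-like cells make either gene themselves was not tested. Their mmp9 levels were above the lyz estimates of macrophages in each library. If those levels are background, the lyz estimates need not be an upper limit. In the RBI-derived cut library the macrophage levels of both genes thus lay near those of neural-like cells, although above the lyz estimate. How much of them is background was not tested.

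Among neutrophils both genes varied widely. In cells thinned to 1000 UMIs, the median neutrophil had 7, 6, 2 and 3 UMIs of mmp9, with 10th and 90th percentiles of 2 and 15, 1 and 18, 0 and 7, and 0 and 9. For mmp13a the medians were 9, 14, 6 and 15 UMIs, with percentiles of 4 and 17, 6 and 45, 2 and 17, and 4 and 36. The upper tail of mmp13a was thus longer in the normal libraries. Without thinning, the 10% of the neutrophils with most mmp13a UMIs held 21.5%, 21.4%, 27.7% and 20.9% of them. These unthinned shares also depend on the depth of each cell, so they are not set against the thinned values.

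**Figure D2:**
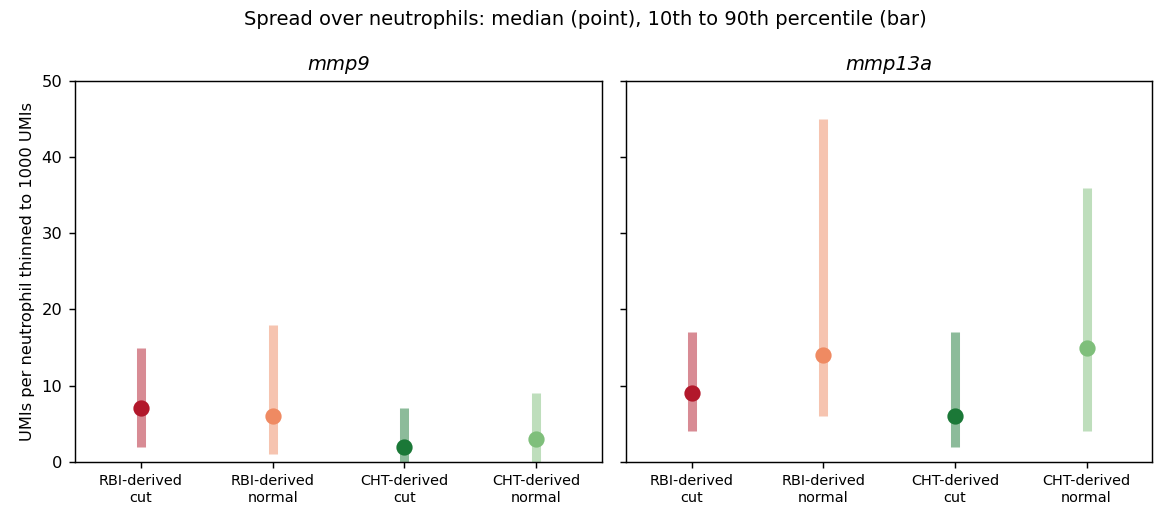
UMIs of mmp9 and mmp13a per neutrophil in cells thinned to 1000 UMIs, with the median as a point and the 10th to 90th percentile as a bar. mmp9 is higher in both RBI-derived libraries, with medians of 7 and 6 against 2 and 3, and the bars of mmp13a reach 45 and 36 in the normal libraries and 17 in both cut ones.

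The same cells carried both genes. Thinned neutrophils held UMIs of both in 96.8%, 92.2%, 75.4% and 79.3%, of mmp13a alone in 2.67%, 7%, 21.5% and 18.7%, and of mmp9 alone in 0.242%, 0.209%, 1.02% and 0%. Spearman's rho of the 2 thinned counts over neutrophils was 0.34, 0.56, 0.51 and 0.61. These cells share a library and 1 total, and the values are a description. Against lyz, rho was -0.30, 0.07, -0.07 and -0.09 for mmp9. For mmp13a it was -0.10, 0.35, 0.11 and 0.12. In RBI-derived normal neutrophils, the third of the cells with most lyz averaged 29.4 thinned UMIs of mmp13a, against 14.9 in the third with least. In RBI-derived cut neutrophils these means were 9.86 and 10.4.

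The symbol mmp13a belongs to 2 identifiers, ENSDARG00000012395 and ENSDARG00000114451, which were counted separately. The table of names used here gives mmp13a for the first and does not list the second, whose symbol rests on the deposited annotation. If they are near-identical copies, reads could be split between them by the counting, so the values for each are uncertain. In neutrophils the first had 3589, 5601, 1846 and 4399 CPM and the second 5717, 9517, 6065 and 9977 CPM. The first thus took 38.6%, 37.0%, 23.3% and 30.6% of the mmp13a UMIs. Binomial intervals of these shares were within 0.5 percentage points and did not overlap, so the proportions differed between libraries beyond counting error. In macrophages the shares were 42.7%, 39.0%, 28.2% and 37.9%. In both classes the lowest share was that of the CHT-derived cut library. Over single neutrophils, the 2 identifiers had a rho of -0.19, 0.11, 0.11 and 0.19.

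**Figure D3:**
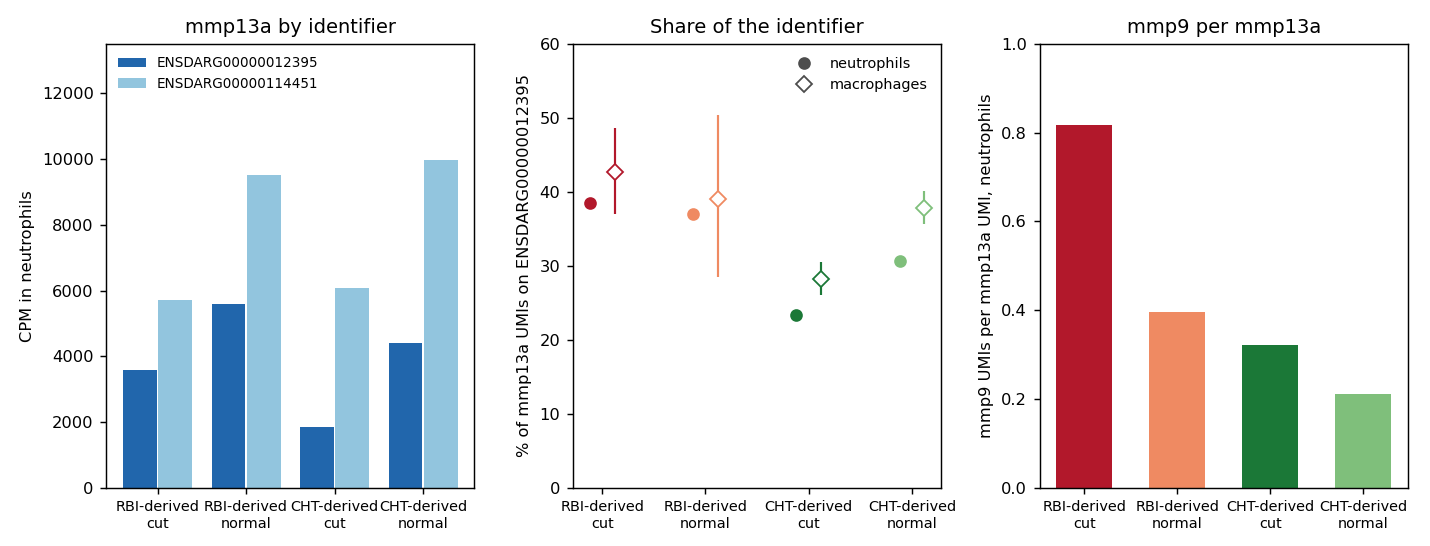
Left, CPM of the 2 identifiers of mmp13a in neutrophils; middle, percentage of mmp13a UMIs on ENSDARG00000012395 with 95% binomial intervals; right, mmp9 UMIs per mmp13a UMI in neutrophils. The share of ENSDARG00000012395 is lowest in CHT-derived cut neutrophils (23.3%), and mmp9 per mmp13a is highest in RBI-derived cut neutrophils (0.817).

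Fin transection was the next comparison, between cut and normal embryos within each origin. A gene was called past the fold when its CPM differed by at least 1.5-fold, the interval of the ratio left out 1 and both sums together held at least 50 UMIs. In RBI-derived neutrophils 17.6% of 6116 genes were past it, and in CHT-derived neutrophils 22.3% of 6986. Of the members, mmp9, mmp13a and timp2b had enough UMIs in both, and mmp13a alone was past the fold, lower in cut neutrophils. A count of 1 of 3 says nothing about the list beside those shares.

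mmp13a was lower in cut than in normal neutrophils of both origins. The log2 ratio was -0.70 (interval -0.72 to -0.68) in RBI-derived and -0.86 (-0.88 to -0.84) in CHT-derived neutrophils, where the median gene had 0.14 in both. In RBI-derived neutrophils it was -0.58 with at least 2000 UMIs per cell and -0.54 with at most 5% mitochondrial UMIs, which is less than 1.5-fold. Both identifiers were lower, by -0.64 and -0.74 in RBI-derived and by -1.25 and -0.72 in CHT-derived neutrophils (ENSDARG00000012395 given first). The sum of the 8 neutrophil markers moved the same way, with 112107 CPM in RBI-derived cut and 171494 CPM in RBI-derived normal neutrophils. In CHT-derived neutrophils it was 151979 CPM in cut and 195802 CPM in normal cells, and no marker was at 0. Most of each sum was lyz, which also sets the class. Outside the cycling cells described below, lyz had 84466 CPM in RBI-derived cut and 133759 CPM in RBI-derived normal neutrophils. In CHT-derived ones it had 119327 CPM in cut and 155599 CPM in normal cells. The sums thus do not show how each marker moved. Median depth moved too, with 3532.5 UMIs in RBI-derived cut and 4869 in RBI-derived normal neutrophils, and 4105 in CHT-derived cut and 8900 in CHT-derived normal ones. At 1000 UMIs per cell the ratios of mmp13a were -1.02 and -1.19. With TMM factors, which put the median gene at 0.04 and -0.08, they were -0.80 and -1.08. The part of the other neutrophil genes in this result was not tested.

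mmp9 did not follow mmp13a in RBI-derived neutrophils. In RBI-derived neutrophils it was 0.34 higher after the cut (0.32 to 0.37), which is 1.27-fold, and in CHT-derived neutrophils the ratio was -0.26 (-0.29 to -0.23). Neither reached 1.5-fold, and in CHT-derived neutrophils mmp9 and mmp13a were both lower. Where each cell counted alike, as in cells thinned to 1000 UMIs, the ratio of the RBI-derived neutrophils was 0.02 (-0.03 to 0.06), whereas that of the CHT-derived ones was -0.52. TMM factors gave 0.24 and -0.48. The UMIs of mmp9 per UMI of mmp13a were 0.817 in RBI-derived cut and 0.396 in RBI-derived normal neutrophils, and 0.322 in CHT-derived cut and 0.212 in CHT-derived normal ones. Neutrophils with more thinned UMIs of mmp9 than of mmp13a made up 33.4% in RBI-derived cut and 7.52% in RBI-derived normal cells. In the CHT-derived libraries these were 6.74% of the cut and 1.48% of the normal neutrophils. In each origin mmp9 was thus higher relative to mmp13a in the cut library, in which mmp13a was lower.

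The inhibitor timp2b (ENSDARG00000075261) stayed below the fold. It had 154.2 CPM in RBI-derived cut and 141.0 CPM in RBI-derived normal neutrophils, a log2 ratio of 0.13 (-0.03 to 0.28). In CHT-derived neutrophils 148.5 CPM in cut and 118.4 CPM in normal cells gave 0.33 (0.18 to 0.48), of which 0.10 was left with edgeR's scaling factors (TMM). Markers of other cells also moved in these comparisons. The 8 erythroid markers summed to 1076 CPM in RBI-derived cut and 12.1 CPM in RBI-derived normal neutrophils, and the 8 muscle markers to 734.2 CPM in CHT-derived cut and 87.2 CPM in CHT-derived normal ones, with none of either list at 0. Their part in these ratios was not tested. Without the neutrophils that also reached the macrophage limit, the CHT-derived ratios were -0.23 for mmp9, -0.83 for mmp13a and 0.33 for timp2b.

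In macrophages mmp9 was higher after the cut in both origins. RBI-derived macrophages had 321.8 CPM in cut and 173.0 CPM in normal embryos, a ratio of 0.90 (0.47 to 1.34), and CHT-derived ones 155.1 CPM in cut and 94.7 CPM in normal embryos, a ratio of 0.71 (0.55 to 0.88). Counted by symbol, it was the only member past the fold, 1 of 4 tested in RBI-derived and 1 of 5 in CHT-derived macrophages, against 16.7% and 25.0% of all genes. The RBI-derived normal value rests on 54 UMIs in 44 cells. After subtraction of free RNA by the lyz estimate, the ratios were 0.10 and 0.20, below 1.5-fold. In cells thinned to 1000 UMIs they were 1.77 (0.49 to 3.42) in RBI-derived and 0.35 (-0.09 to 0.79) in CHT-derived macrophages, so that the CHT-derived one was no longer past the fold. Neural-like cells also had more mmp9 in the cut libraries, with 313.7 CPM in RBI-derived cut and 48.0 in RBI-derived normal ones. In CHT-derived ones it was 70.5 CPM in cut and 54.9 in normal, with overlapping intervals. The part of background in the macrophage ratios was not tested. Nephrosin (npsn), a granulocyte protease and here a marker of neutrophils, was also higher in cut macrophages, with 179.2 CPM in RBI-derived cut and 96.1 in RBI-derived normal, and 132.2 in CHT-derived cut and 73.5 in CHT-derived normal ones. The 8 neutrophil markers summed to 3168 CPM in RBI-derived cut and 2448 CPM in RBI-derived normal macrophages, where 1 marker was at 0. In CHT-derived macrophages they summed to 3930.5 CPM in cut and 2381 CPM in normal embryos, with no marker at 0. The part of these neutrophil transcripts in the ratio was not tested.

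The other members followed no common direction in macrophages. For mmp13a the ratio was 0.19 (-0.16 to 0.56) in RBI-derived and -0.30 (-0.40 to -0.20) in CHT-derived macrophages. Its identifiers parted in CHT-derived macrophages, with -0.72 (-0.90 to -0.55) for ENSDARG00000012395, past the fold, and -0.09 (-0.21 to 0.03) for ENSDARG00000114451. In RBI-derived macrophages they had 0.32 (-0.25 to 0.93) and 0.10 (-0.36 to 0.59). mmp14b had 0.38 (-0.64 to 1.54) and 0.46 (0.08 to 0.85), and timp2b -0.30 (-0.73 to 0.14) and 0.40 (0.27 to 0.54). At 1000 UMIs per cell the RBI-derived ratios were 1.28 (0.09 to 2.77) for mmp13a and -1.16 (-2.07 to -0.18) for timp2b. Subtraction of free RNA turned mmp13a to -0.37 in RBI-derived and left -1.28 in CHT-derived macrophages.

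**Figure D4:**
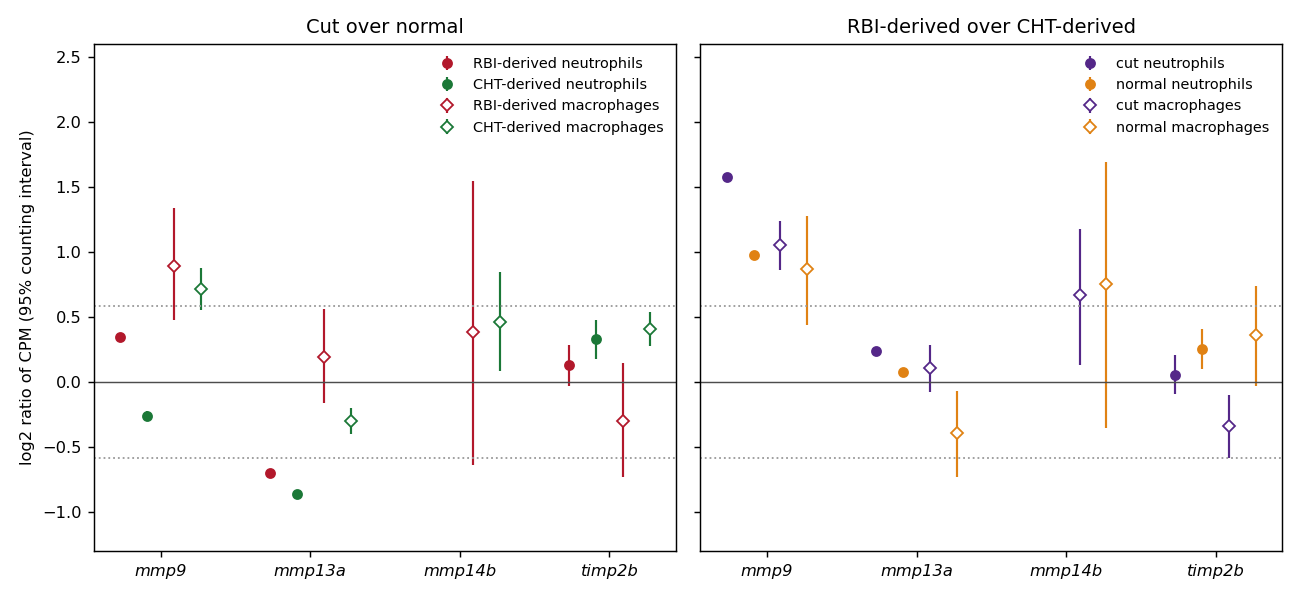
Log2 ratios of CPM for the members with at least 50 UMIs over both sums, cut over normal (left) and RBI-derived over CHT-derived (right), in neutrophils (filled circles) and macrophages (open diamonds), with 95% counting intervals; dotted lines mark 1.5-fold. mmp13a lies below the lower line in both neutrophil ratios of cut over normal (-0.70 and -0.86), and mmp9 above the upper line in all ratios of RBI-derived over CHT-derived (0.87 to 1.58).

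Origin was compared between RBI-derived and CHT-derived cells within the cut and the normal embryos. Counted by symbol, mmp9 was the member that separated the neutrophils of these origins. In neutrophils it was 2.99-fold higher in RBI-derived cut than in CHT-derived cut cells (log2 ratio 1.58, 1.55 to 1.61) and 1.97-fold higher in RBI-derived normal than in CHT-derived normal cells (0.98, 0.95 to 1.00). Of 3 members with enough UMIs mmp9 alone was past the fold in each, where 24.8% of 6609 genes in cut and 18.1% of 6516 genes in normal neutrophils were. In RBI-derived cut and CHT-derived cut neutrophils the 8 muscle markers summed to 5.12 and 734.2 CPM (2 and 0 markers at 0), the 8 macrophage markers to 36.8 and 290.1 CPM (1 and 0 at 0), the 8 erythroid markers to 1076 and 306.5 CPM and the 8 neutrophil markers to 112107 and 151979 CPM (none at 0 in either list). In RBI-derived normal and CHT-derived normal neutrophils the sums were 27.3 and 87.2 CPM (muscle), 5.19 and 48.6 CPM (macrophage, 3 and 0 at 0), 12.1 and 46.5 CPM (erythroid) and 171494 and 195802 CPM (neutrophil), and their part in the result was not tested. The ratio of mmp9 stayed between 1.52 and 1.71 in cut and between 0.83 and 1.06 in normal neutrophils under every alternative tried.

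mmp13a was below the fold by origin, with a log2 ratio of 0.23 (0.21 to 0.25) in cut and 0.07 (0.06 to 0.09) in normal neutrophils. The identifiers parted: ENSDARG00000012395 was 1.94-fold higher in RBI-derived cut than in CHT-derived cut neutrophils (0.96) and 0.35 higher in normal ones (log2), whereas ENSDARG00000114451 had -0.09 in cut and -0.07 in normal neutrophils. timp2b had 0.05 (-0.10 to 0.21) in cut and 0.25 (0.10 to 0.41) in normal neutrophils.

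Macrophages showed the same order for mmp9, although its RBI-derived cut level lay near that of neural-like cells. The ratio of RBI-derived over CHT-derived was 1.05 (0.86 to 1.24) in cut and 0.87 (0.44 to 1.28) in normal macrophages. Of 4 members tested, 2 were past the fold in cut macrophages (mmp9 and mmp14b), against 12% of all genes, and 1 in normal macrophages (mmp9), against 9.07%. At 1000 UMIs per cell the normal value was -0.03 (-1.71 to 1.26), with 44 RBI-derived cells behind it. The droplets with free RNA held 6604 CPM of mmp9 in the RBI-derived cut and 1288 CPM in the CHT-derived cut library, and 1601 CPM in RBI-derived normal and 977.5 CPM in CHT-derived normal. Subtraction left 0.80 in cut and 0.90 in normal macrophages. By identifier, mmp13a had 128.3 CPM (ENSDARG00000012395) and 172.1 CPM (ENSDARG00000114451) in RBI-derived cut macrophages, against 78.9 and 200.5 CPM in CHT-derived cut ones. In RBI-derived normal macrophages these were 102.5 and 160.2 CPM, against 130.4 and 213.9 CPM in CHT-derived normal ones. The membrane enzyme mmp14b had 41.8 CPM in RBI-derived cut and 26.3 CPM in CHT-derived cut macrophages, a ratio of 0.67 (0.13 to 1.18). In RBI-derived normal and CHT-derived normal macrophages it had 32.0 and 19.0 CPM, from 10 and 99 UMIs, a ratio of 0.75. This ratio was not called past the fold, because its interval did not leave out 1.

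The membrane-anchored enzyme mmp14b (ENSDARG00000008388) was a macrophage transcript among the myeloid cells. Neutrophils had 12, 4, 16 and 7 UMIs, or 2.67, 0.87, 3.11 and 1.16 CPM, and macrophages 41, 10, 144 and 99 UMIs, or 41.8, 32.0, 26.3 and 19.0 CPM. Neutrophils over macrophages thus had a log2 ratio of -3.97 (-5.03 to -3.01) among RBI-derived cut cells. For CHT-derived cells it was -3.08 (-3.92 to -2.33) after the cut and -4.03 (-5.39 to -2.94) without it. Only 14 UMIs were found in RBI-derived normal cells, too few for the rule. Without the neutrophils past the macrophage limit, the value of the CHT-derived cut library was -4.35, and with free RNA subtracted it was -6.65. That subtraction took 14.7 of the 16 UMIs in these neutrophils, so -6.65 rests on the little that was left. It counted all macrophage-gene UMIs of the neutrophils as free RNA, also those of the cells past the macrophage limit. Other cells as a whole had 17.0, 19.4, 14.3 and 17.4 CPM, below macrophages in each library, though with overlapping Poisson intervals in 3 of the 4. Among the other cells named below, pooled over libraries, mesenchyme-like cells had 100.4 CPM of mmp14b (72.1 to 136.2) and endothelium-like cells 146.9 (63.4 to 289.4), above the macrophage levels. At 1000 UMIs per cell 4.78%, 4.55%, 2.70% and 2.55% of macrophages had a UMI, against 15.7%, 11.4%, 11.6% and 14.7% unthinned.

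Read beside all genes, 3 of 4 members tested were past the fold between neutrophils and macrophages in RBI-derived cut cells, 2 of 3 in RBI-derived normal, 3 of 4 in CHT-derived cut and 3 of 4 in CHT-derived normal cells. Of all genes 48.0%, 41.2%, 47.2% and 56.9% were. The share of all genes past the fold was thus large, and the count of members carries little beside it. timp2b was the member not past it, at -0.09 (-0.34 to 0.17), -0.52 (-0.89 to -0.12), -0.48 (-0.62 to -0.35) and -0.41 (-0.55 to -0.26), values that became 0.32, -0.02, -0.28 and 0.08 with TMM factors. TMM moved the median over all genes in these ratios from -0.18, -0.16, -0.24 and -0.46 to 0.23, 0.34, -0.04 and 0.03, so the direction of timp2b depends on the scaling. At 1000 UMIs per cell timp2b was found in 12.8%, 14.5%, 12.9% and 10.7% of neutrophils and 12.6%, 20.5%, 15.5% and 11.5% of macrophages, with overlapping intervals in every library.

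The 3 remaining members were close to absent from the myeloid cells. In neutrophils mmp2 (ENSDARG00000017676) had 3, 0, 5 and 5 UMIs, mmp14a (ENSDARG00000002235) 1, 1, 0 and 3, and timp2a (ENSDARG00000061226) 8, 8, 9 and 12. In RBI-derived normal neutrophils 0 of 957 cells had a UMI of mmp2, and in CHT-derived cut ones 0 of 1172 had one of mmp14a. With a floor of 3 counts this allows shares of cells with a UMI of up to 0.313% and 0.256% at this depth, which do not limit the share of cells that express the gene. Macrophages had 4, 0, 19 and 20 UMIs of mmp2, 1, 0, 9 and 1 of mmp14a and 2, 1, 23 and 27 of timp2a. In other cells mmp2 reached 25.5, 26.9, 21.3 and 30.2 CPM. That was 21.9-fold to 38.1-fold above neutrophils in the 3 libraries in which neutrophils had a UMI. The largest, in RBI-derived cut cells, rests on 9 against 3 UMIs, with a log2 interval of 3.25 to 7.78. In RBI-derived normal cells 18 UMIs stood against 0, with a lower limit of 4.93 (log2). Set against a floor of 3 counts in the neutrophil sum, that ratio would be 41.5-fold. timp2a reached 19.8, 12, 14 and 19.9 CPM in other cells, and mmp14a 2.83, 8.98, 4.78 and 8.82 CPM.

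The other cells, sorted through the Dendra2 gate although lyz and macrophage genes were low, were named by lists of 8 markers each where at least 3 were detected in the cell. Pooled over libraries, 104 were mesenchyme-like, 42 epidermis-like, 17 endothelium-like, 840 neural-like, 59 muscle-like, 78 erythroid-like and 49 progenitor-like, and 543 took no name. The mesenchyme-like cells, named by collagen and connective tissue genes, held 93 of the mmp2 UMIs (48.7% of those in other cells), 32 of mmp14a (62.7%), 41 of mmp14b (34.5%) and 37 of timp2a (30.1%). The 840 neural-like cells held more of timp2a, with 40 UMIs (32.5%). For mmp14b, unnamed cells held 33 UMIs (27.7%) and neural-like cells 25 (21.0%). Levels in the mesenchyme-like cells were 227.8 CPM of mmp2 (183.8 to 279.0), 78.4 of mmp14a, 100.4 of mmp14b, 90.6 of timp2a and 102.9 of timp2b. Transcripts of mmp2, mmp14a, mmp14b, timp2a and timp2b were thus all found in this small group, summed over its cells. Whether single cells held them together was not counted, and no protein or complex was measured. In every library the mmp2 level of the group was at least 165.1 CPM, with 3, 9, 32 and 49 UMIs. In RBI-derived cut the group was 4 cells, with 0 UMIs of timp2a. Over the 4 libraries it had 0, 2, 5 and 30 UMIs of timp2a and 1, 1, 24 and 16 of timp2b, so the pooled inhibitor levels rest mainly on the CHT-derived libraries. In CHT-derived cut, mesenchyme-like cells had 60.5 CPM of timp2a and epidermis-like cells 68.9, from 5 UMIs each.

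**Figure D5:**
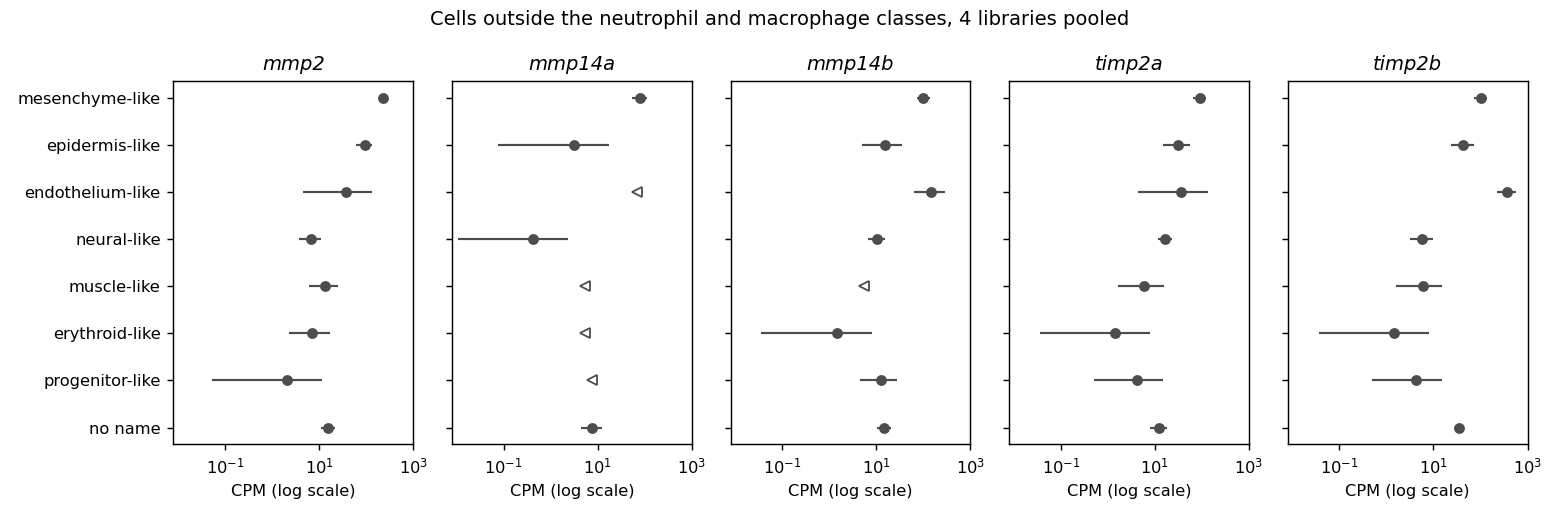
CPM (log scale) of the 5 members low in neutrophils or shared among classes, in cells outside the neutrophil and macrophage classes, pooled over the 4 libraries, with 95% Poisson intervals; open triangles mark the upper limit where no UMI was found. mmp2, mmp14a and timp2a are highest in the mesenchyme-like cells, and the endothelium-like cells, 17 in all, have the highest timp2b at 367.2 CPM.

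Epidermis-like cells had 92.4 CPM of mmp2 and 30.8 of timp2a. Endothelium-like cells had 367.2 CPM of timp2b (224.3 to 567.1) and 146.9 of mmp14b, from 20 and 8 UMIs. In neural-like cells these genes were low, with 6.64 CPM of mmp2, 0.415 of mmp14a, 10.4 of mmp14b, 16.6 of timp2a and 5.81 of timp2b.

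In the RBI-derived libraries, high mmp9 and mmp13a outside the neutrophil class came from cells without a name. In the RBI-derived cut library 99 such cells had 3895 CPM of mmp9 and 3949 of mmp13a, against 313.7 and 349.9 CPM in its neural-like cells. Their lyz summed to 3081 CPM, with a median of 0.21% of the UMIs per cell, below the limit of 1%, and they had a median of 4 UMIs of the other neutrophil markers. The 10% of all other cells with most mmp9 in this library held 55.2% of its mmp9 UMIs. Unnamed cells had 1336 CPM of mmp9 in RBI-derived normal, 225.3 in CHT-derived cut and 47.6 in CHT-derived normal libraries. Their mmp13a levels in these libraries were 1614, 267.7 and 175.2 CPM. In CHT-derived normal, neural-like cells had 54.9 CPM of mmp9 and epidermis-like cells 104.3, both above the unnamed cells. Whether the unnamed cells are neutrophils with little lyz was not tested. Cells with 0.5% to 1% lyz numbered 37, 16, 42 and 13, and cells with 1% to 2% numbered 56, 11, 30 and 7.

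Within the classes, cells with at least 2 UMIs of 12 cell cycle genes after thinning were set beside the rest. Cycling neutrophils numbered 39, 43, 59 and 33. They had less mmp13a in each library, with log2 ratios over the other neutrophils of -0.31, -0.75, -0.91 and -0.37. For mmp9 the ratios were 0.05, -0.68, -0.33 and 0.14, and those of lyz 0.19, 0.05, -0.07 and -0.13. Cycling and other neutrophils differed in depth, with medians of 4512 and 3517 UMIs in RBI-derived cut, 7547 and 4738.5 in RBI-derived normal, 1887 and 4140.0 in CHT-derived cut and 12882 and 8769 in CHT-derived normal cells. Macrophages with a thinned UMI of tnfa, cxcl8a or il1b, inflammatory cytokine genes, had log2 ratios of mmp9 over the other macrophages of 0.01 (-0.37 to 0.41), -0.86 (-1.74 to -0.03), -0.61 (-0.84 to -0.38) and -0.45 (-0.71 to -0.18). In 3 of the 4 libraries mmp9 was thus lower in these cells, and in RBI-derived cut macrophages the interval held 0. The RBI-derived normal ratio rests on 20 UMIs in 23 cells against 34 UMIs in 21 cells. How much of the mmp9 in macrophages is background was not tested.

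The annotation held 54 further genes listed by symbol alone (mmp, timp, adam and adamts genes, reck and npsn), of which 53 had a UMI and 23 at least 50. Not every gene of this list need be a matrix protease or an inhibitor. By far the most abundant was npsn, with 9392 CPM in RBI-derived cut, 13553 in RBI-derived normal, 9957 in CHT-derived cut and 14502 in CHT-derived normal neutrophils. Of the 11 tested in each neutrophil ratio of cut over normal, none was past the fold, against the 17.6% and 22.3% of all genes given above, with npsn at -0.53 in RBI-derived and -0.54 in CHT-derived neutrophils. By origin, 3 of 11 were past it in cut neutrophils, close to the 24.8% of all genes, all higher in RBI-derived ones: adam15 (0.85), adam28 (0.59) and reck (0.65), a membrane-anchored inhibitor of metalloproteinases. In normal neutrophils 1 of 11 was, adam15 (0.61), beside 18.1% of all genes.

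Between neutrophils and macrophages 7, 6, 6 and 8 of these genes were higher in neutrophils and 2, 0, 2 and 2 higher in macrophages, of 12, 11, 13 and 12 tested. Of all genes, 48.0%, 41.2%, 47.2% and 56.9% were past the fold in either direction, more of them lower than higher in neutrophils. adam19b had 441.8, 403.4, 321.0 and 398.0 CPM in neutrophils and 25.5, 3.20, 18.8 and 11.2 CPM in macrophages. adam8a, the gene of a protease of leukocytes, had 438.5, 459.4, 387.7 and 504.6 CPM in neutrophils and 271.9, 115.3, 321.9 and 116.6 CPM in macrophages. In macrophages it was higher after the cut, at 1.24 (0.73 to 1.78) in RBI-derived and 1.47 (1.33 to 1.60) in CHT-derived cells. adam10a, a sheddase, had 123.0 to 158.9 CPM in neutrophils and 105.7 to 175.2 CPM in macrophages. reck, adam19a and adam8b were higher in neutrophils in all 4 libraries, and mmp25b and adam28 in 3 and 1. On the macrophage side were adam9 in 3 libraries, adam17a in 2 and adam15 in 1. Of 5 such genes tested in RBI-derived macrophages 3 were past the fold, all higher after the cut: adam10a, adam8a and npsn (0.90). Of 12 in CHT-derived macrophages 5 were higher, namely adam15, adam19b (0.75), adam28, adam8a and npsn (0.85). The 2 lower ones were adam19a and adam9. Of all genes 16.7% and 25.0% were past the fold. Between the classes, npsn, adam19b and adam19a were higher in neutrophils in all 4 libraries, and adam8a was past the fold that way in all but CHT-derived cut. The part of neutrophil transcripts in these counts was not tested. By origin, 2 of 9 were higher in RBI-derived cut macrophages, beside 12% of all genes, and 0 of 9 in normal ones, beside 9.07%.

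Genes with the most similar pattern were sought over the 12 sums of 3 classes in 4 libraries, by Pearson's r of log2(CPM + 10) among 8378 genes with at least 200 UMIs. The points share libraries and cell classes, so r is a description. For mmp9 the closest were ved (0.99), zgc:77112, a gene named here only by a zmp number, fryl and si:ch73-359m17.5, all at 0.97 or above. For mmp13a they were si:rp71-1g18.13, BX248410.4, mpx, npsn and chia.6, all at 0.99, and mmp9 itself had 0.96. For mmp2 the genes were rerea, foxp4, fstl1b and the unnamed ENSDARG00000040725 and ENSDARG00000041723, and r with timp2a was 0.96. For timp2a they were nuak2, epcam, tob1a, tspan3a and col1a1b. For mmp14b the genes were phf20l1, arhgef12b, nedd4l, clul1 and fam49al, from 0.97 to 0.98, and r was -0.77 with mmp9 and -0.88 with mmp13a. For timp2b the closest were si:ch211-243a20.4, spi1a, gnai2a, si:dkey-25e12.3 and stx11a, at 0.98 to 0.99, while r with timp2a was -0.77. Over the 3 classes the 2 inhibitor genes thus had opposite patterns, although timp2a had at most 5.19 CPM in any neutrophil or macrophage sum. Within the other cells they did not part in this way. Mesenchyme-like cells had 90.6 CPM of timp2a and 102.9 of timp2b, against 16.6 and 5.81 CPM in neural-like cells.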

How the data were processed

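The authors deposited 1 matrix of UMI counts per condition, with all barcodes and without normalization; per the file headers they come from Cell Ranger 7.1.0, and the build is GRCz11 by the submitters' processing notes. The annotation release is not given in the sources used here. All columns of values were used. From these counts, UMIs of identifiers sharing a symbol were added, summed per class and library, and expressed as CPM with exact Poisson intervals. Ratios have exact conditional binomial intervals and shares exact Clopper-Pearson intervals, all covering counting error only. No doublet caller was run. In its place, cells past both limits were counted (209) and left out as an alternative.

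The members and the lists were chosen with earlier results of these data known. Named genes were the 7 members, the 5 further proteases or inhibitors with most UMIs (npsn, adam8a, adam19b, adam10a and reck), those past the fold in a neutrophil comparison and the 5 genes with the highest r for each member with at least 200 UMIs. Alternatives were lyz limits of 0.5% and 2%, 5 macrophage UMIs, at least 500 or 2000 UMIs, at most 5% mitochondrial UMIs, TMM factors, totals without lyz, means over cells, thinning, no cells past both limits, no shared barcodes, subtraction of free RNA and genes with at least 10 UMIs. The ratio intervals were tested on simulated Poisson counts, the model they assume, and thinning was tested for its totals. That test does not cover variation between cells or libraries, the class rule or the subtraction of free RNA. Scripts ran in Python 3.11.15 with scipy 1.17.1, numpy 2.4.6 and pandas 2.3.3; figures came from matplotlib 3.10.9, and TMM factors from edgeR 4.0.16 under R 4.3.3. Members' sequences and coordinates were not used here.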

Additional observations from a re-analysis of the deposited data

Results flagged for a closer look

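The ratio of cut over normal for mmp9 in neutrophils had opposite signs in the 2 origins, 0.34 in RBI-derived and -0.26 in CHT-derived neutrophils on the log2 scale, a difference of 0.60. With 1 library per condition this difference was not tested. It was 0.02 and -0.52 in cells thinned to 1000 UMIs, where the RBI-derived interval (-0.03 to 0.06) held 0.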

How the results depend on the processing

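Of 156 recomputed counts of members past the fold over 13 alternatives, 147 lay within 1.5 times the main count and 140 were equal to it. In RBI-derived neutrophils, cut over normal, the count of 1 became 0 with at least 2000 UMIs per cell and 0 with at most 5% mitochondrial UMIs. At 1000 UMIs per cell it became 3 in RBI-derived and 0 in CHT-derived macrophages, cut over normal (main count 1 in each), and 1 in cut macrophages by origin (main count 2). Means over cells gave 2 for CHT-derived macrophages, cut over normal, and 2 for normal macrophages by origin (main count 1 in each). Subtraction of free RNA gave 0 for RBI-derived macrophages, cut over normal, and 3 for normal macrophages by origin. The causes were not tested.

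Of 571 recomputed single ratios of 44, 451 stayed within the counting interval of the main value, 19 moved by more than 1.5-fold and 10 changed sign. Of these sign changes 9 were in ratios of timp2b or mmp13a that were not past the fold, and 1 in a ratio past it: mmp9 in normal macrophages, RBI-derived over CHT-derived, at -0.034 in thinned cells against 0.87. No replicate could be left out, because the entries of a condition share 1 matrix, and no paired analysis was possible because no replicate can be told apart. Depth limits mmp2, mmp14a and timp2a in the myeloid classes and all values of the 44 RBI-derived normal macrophages.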
